A study of Mus musculus with 2 samples.

Results

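The 8 genes described here carry acetylcholine signalling in the locus coeruleus (LC) of the mouse, a small pontine group of noradrenergic neurons. Chat (choline acetyltransferase, which makes acetylcholine), Slc5a7 (the choline transporter that brings choline back into the terminal) and Slc18a3 (the transporter that loads acetylcholine into vesicles) mark cholinergic neurons. Chrm1, Chrm2, Chrm3, Chrm4 and Chrm5 encode the muscarinic acetylcholine receptors. The members were taken by symbol, and each matched 1 of the 32285 gene rows in each of the 2 deposited count matrices. Wild-type C57BL/6N mice, 3 to 4 weeks old and male as well as female, gave both libraries, which form 1 group (n = 2). The labels describe papain-dissociated, methanol-fixed cells as well as nuclei sorted after 7-AAD staining, without saying which library came from which, and the number of mice in a library is not given. The word cell stands for either.

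Muscarinic receptors are G protein-coupled. Chrm1, Chrm3 and Chrm5 act through Gq, which activates phospholipase C, releases calcium from stores and closes M-type potassium channels. Chrm2 and Chrm4 act through Gi and Go, which lower cyclic AMP and open inwardly rectifying potassium channels, and Chrm2 is also known as an autoreceptor that limits acetylcholine release. The LC is known to receive cholinergic input from the brainstem, and its noradrenergic neurons are excited by muscarinic agonists.

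Library 1 held 304 barcodes with 5600693 unique molecular identifiers (UMIs, 1 per captured transcript) and a median of 11010 per barcode. Library 2 held 2796 barcodes with 6895380 UMIs and a median of 1517. The libraries shared 0 barcodes, and 294 and 2680 cells remained after filtering, against 2578 in all stated for the series. Library 2 therefore had the larger number of cells, each at lower depth, and levels are given for each library as CPM, the UMIs of a gene per 1000000 UMIs of a class. Classes were built from marker genes that excluded the 8 members. Noradrenergic-like cells numbered 12 and 74 in libraries 1 and 2. All 8 noradrenergic markers, Dbh, Th and Slc6a2 among them, were detected in that class in each library, at a summed 9840 and 7310 CPM. Intervals in brackets are exact 95% intervals and, like the floors, cover counting error only.

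Transcripts of the cholinergic neuron markers were rare. At least 1 UMI of Chat, Slc5a7 or Slc18a3 was found in 12 of 294 cells of library 1 (4.08%, 2.13 to 7.02) and in 47 of 2680 cells of library 2 (1.75%, 1.29 to 2.33). At least 2 of the 3 genes were found in 1 cell of library 1 (0.34%, 0.00861 to 1.88) and in 4 cells of library 2 (0.149%, 0.0407 to 0.382). Those 4 cells of library 2 each held all 3 genes, whereas no cell of library 1 did, where 0 of 294 cells allows a share of up to 1.02%. Slc5a7 was the marker behind most single detections, with Slc5a7 alone in 10 cells of library 1 and in 36 of library 2. Of the cells with exactly 1 of the genes, 8 of 11 in library 1 and 34 of 43 in library 2 held a single UMI. These cells had a median of 32077 and 4101 UMIs, against 11010 and 1481 in the cells with none. Neurons made up 8 of the 11 and 33 of the 43. Their median depth was 14297 and 2304.5 UMIs, against 7767 and 1191 in non-neuronal cells, so depth and class cannot be told apart here. Thinned to 1000 UMIs per cell, 0 of 294 and 16 of 1954 cells had any of the 3 genes. Among oligodendrocyte-like cells, a class that should lack these genes, 1 of 39 and 4 of 730 had a UMI, at median depths of 9819 and 1435.

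All 5 cells with at least 2 markers lay among neurons to which no class name was given, in 1 cluster led by Lmx1b, Ebf2 and Tac1 and another led by Ebf2, Pax5 and Hs3st4. The 4 cells of library 2 held 20550, 10804, 10022 and 6853 UMIs in all. Chat had 8, 1, 6 and 2 UMIs in them, Slc5a7 14, 7, 2 and 5, and Slc18a3 2, 2, 3 and 1. Together they carried 17 of the 21 Chat UMIs, 8 of the 11 Slc18a3 UMIs and 28 of the 81 Slc5a7 UMIs of library 2. The cell of library 1 held 34674 UMIs with 2 of Chat and 3 of Slc5a7. These cells were chosen on the same 3 genes, and a cell with Slc5a7 alone could not be among them, so the shares are partly set by that choice. Over all cells of library 2, Chat was found in 8 and Slc18a3 in 7. Slc5a7 was the only marker in 15 unnamed neurons of that library, so its transcripts were spread over more cells.

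The receptor content of the 4 cells of library 2 was read without a test, because it rests on 1 library. Chrm2 had 13, 3, 8 and 3 UMIs in them (same order), or 560 CPM (369 to 815), against 105 CPM (95.8 to 115) in the other neurons of that library, noradrenergic-like cells included. Chrm3 had 0 UMIs in all 4, with a floor of 62.2 CPM for 3 counts, against 255 CPM (240 to 270) in those other neurons. Chrm1, Chrm4 and Chrm5 had none. In the cell of library 1, Chrm2 had 1 UMI and Chrm3 none, which at a floor of 86.5 CPM gives no order of the receptors.

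Of other genes of hindbrain cholinergic neurons, Nos1 and Slc10a4 stood high in the same 4 cells. Nos1, the neuronal nitric oxide synthase that mouse cholinergic neurons of the laterodorsal and pedunculopontine tegmentum are known to make, had 44, 1, 12 and 11 UMIs, or 1410 CPM (1090 to 1790) against 27.4 CPM (22.6 to 32.8) in the other neurons. Of the other neurons, 1 of 1216 in library 2 and 2 of 198 in library 1 had 10 or more Nos1 UMIs. Slc10a4, a vesicle protein of cholinergic and monoaminergic neurons, had 2, 1, 4 and 1 UMIs, or 166 CPM (71.6 to 327) against 36.9 CPM (31.4 to 43.1). The cell of library 1 had 0 UMIs of either. The motor neuron and visceral neuron genes Isl1, Isl2, Mnx1, Tbx20, Phox2a and Prph were at 0 UMIs in all 5 cells with at least 2 markers. Slc17a6, a glutamate transporter of vesicles, had 4 UMIs in 1 of the 4 cells and 2 UMIs in the cell of library 1. Gad1, Gad2, Slc32a1 and Slc6a5, which mark inhibitory neurons, and Dbh were at 0 in all 5.

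**Figure D1:**
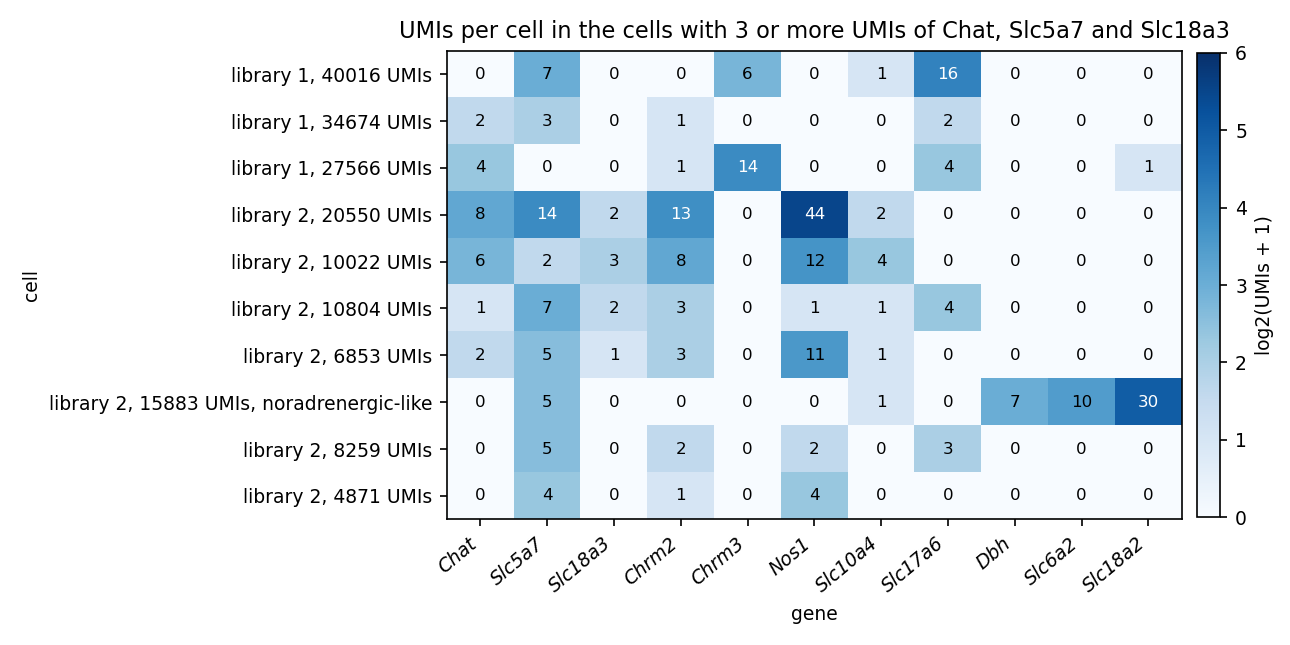
UMI counts (number and shade, log2(UMIs + 1)) of 11 genes in the 10 cells with 3 or more UMIs of Chat, Slc5a7 and Slc18a3 together, 1 row per cell with its library and total UMIs. The 4 cells of library 2 that hold all 3 markers have Chrm2 and Nos1 and no Chrm3, while 2 cells of library 1 hold 6 and 14 UMIs of Chrm3.

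A wider cut at 3 or more UMIs over the 3 markers, chosen after the values were seen, gave 3 cells of library 1 and 7 of library 2. It added 2 cells of library 2 with 5 and 4 Slc5a7 UMIs, with 2 and 1 UMIs of Chrm2, 2 and 4 of Nos1 and none of Chrm3. It also added a cell of library 1 with 7 Slc5a7 UMIs, 16 of Slc17a6 and 6 of Chrm3, and another with 4 Chat UMIs, 4 of Slc17a6, 4 of Gad2 and 14 of Chrm3. The remaining cell, in library 2, was noradrenergic-like, with 5 Slc5a7 UMIs beside 30 of Slc18a2, 10 of Slc6a2 and 7 of Dbh. None of the 3 cells of library 1 held Nos1 and 2 held Chrm3, while 6 of the 7 cells of library 2 held Nos1 and none held Chrm3. The part of the library in this was not tested.

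Slc5a7 was also detected in the noradrenergic-like class. It had 4 UMIs in 4 of 12 cells (4.05 CPM, 1.1 to 10.4) in library 1 and 15 UMIs in 7 of 74 cells (21.3 CPM, 11.9 to 35.1) in library 2. Non-neuronal cells, which should lack the gene, had 3.17 (0.653 to 9.26) and 3.87 CPM (1.67 to 7.62), at median depths of 7767 and 1191 UMIs, so the level in library 1 was not above this background. Among them, vascular or blood-like cells of library 2 had 15.4 CPM, in 4 of 209 cells, inside the noradrenergic-like interval of that library. The other neurons had 3.62 and 15.9 CPM and overlapped the noradrenergic-like class within counting error in each library. Without the cells with at least 2 cholinergic markers, which were chosen in part on Slc5a7 itself, the other neurons had 2.81 and 8.32 CPM. Chat had 0 and 1 UMIs in the noradrenergic-like class, and Slc18a3 had 0 and 0. Chat lies at chr14:32408203-32465989 (GRCm38, minus strand), and Slc18a3 at chr14:32462438-32464850 lies within it on the same strand, so a read of this stretch could belong to either gene and the split between them is uncertain. Slc5a7 lies at chr17:54273590-54299034 (minus). The 300 bases from 250 before to 50 after the start of Chat (chr14:32465860-32466159) and Slc18a3 (chr14:32464801-32465100) are printed because both starts fall in that shared locus. They are RefSeq sequences on the GRCm38.p6 build, read 5′ to 3′ on the minus strand, with GC boxes (GGGCGG or its reverse CCGCCC) in capitals.
Chat: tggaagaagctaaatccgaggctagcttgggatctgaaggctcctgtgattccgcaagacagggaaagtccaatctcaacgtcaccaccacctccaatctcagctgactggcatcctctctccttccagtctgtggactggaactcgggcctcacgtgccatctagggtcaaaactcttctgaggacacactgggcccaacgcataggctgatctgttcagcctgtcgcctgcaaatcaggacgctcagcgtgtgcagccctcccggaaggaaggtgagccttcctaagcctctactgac
Slc18a3: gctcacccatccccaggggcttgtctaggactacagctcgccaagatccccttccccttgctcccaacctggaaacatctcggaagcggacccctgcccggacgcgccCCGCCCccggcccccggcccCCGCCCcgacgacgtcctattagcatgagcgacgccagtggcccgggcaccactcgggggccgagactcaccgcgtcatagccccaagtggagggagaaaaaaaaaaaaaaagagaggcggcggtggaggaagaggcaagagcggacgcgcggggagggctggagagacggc
The Slc18a3 window held 2 GC boxes and the Chat window held 0, where 35.7% of all 32851 RefSeq promoter windows of this length hold at least 1.

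Of the receptors, Chrm3 and Chrm2 carried nearly all UMIs. Chrm3 had 1095 and 1140 UMIs in libraries 1 and 2, Chrm2 331 and 515, and Chrm1 15 and 14. Chrm4 had 1 and 0, and Chrm5 1 and 3. Chrm4 (chr2:91927249-91928688, plus) and Chrm5 (chr2:112479171-112480769, minus) are annotated in GENCODE M21 with 1440 and 1599 exon bases, of which 3 each lie in untranslated regions. RefSeq carries these genes 1147 and 438 bases past that 3′ end. A 3′ library reads near the end of a transcript, so their low counts are uncertain. No level between receptors is compared for them.

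The window at the start of Chrm2 (chr6:36387834-36388133, plus) and that of Chrm3 (chr13:10360754-10361053, minus) are shown because these receptors were high in the same neuronal classes and low in the noradrenergic-like class. They are given on the strand of the gene, with GC boxes again in capitals. The Chrm3 window holds the GENCODE start of the gene (10360847), while its outermost RefSeq start (10361062) lies outside the window.
Chrm2: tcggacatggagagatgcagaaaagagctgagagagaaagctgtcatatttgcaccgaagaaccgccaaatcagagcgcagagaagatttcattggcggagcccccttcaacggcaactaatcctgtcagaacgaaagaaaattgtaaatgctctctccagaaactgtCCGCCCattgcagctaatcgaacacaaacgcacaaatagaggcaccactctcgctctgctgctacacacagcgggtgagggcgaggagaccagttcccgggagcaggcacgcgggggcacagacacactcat
Chrm3: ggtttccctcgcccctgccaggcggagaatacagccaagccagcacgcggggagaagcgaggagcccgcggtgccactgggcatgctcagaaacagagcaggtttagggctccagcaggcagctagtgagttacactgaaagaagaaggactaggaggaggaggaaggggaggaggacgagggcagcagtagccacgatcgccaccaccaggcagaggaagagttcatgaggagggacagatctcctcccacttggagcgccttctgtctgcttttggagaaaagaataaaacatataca
The Chrm2 window held 1 GC box and the Chrm3 window held 0. The E-box CANNTG was found 0 times in the Chrm2 window and 1 time in the Chrm3 window, against at least 1 match in 72.3% of all windows. A match of letters is not a binding site.

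Chrm3 (chr13:9875486-10360847, minus) was highest in neurons. It reached 338 CPM in library 1 and 605 in library 2 in excitatory-like neurons, and 377 and 308 in unnamed neurons. Inhibitory-like neurons had 269 and 299 CPM, and cerebellar granule-like neurons had 222 and 271. Mesencephalic trigeminal-like neurons, large sensory neurons of jaw muscle spindles, had 146 and 118. The library ranges of the first pair overlapped, as did those of inhibitory-like and granule-like neurons, whereas trigeminal-like neurons lay below granule-like neurons in both libraries. The noradrenergic-like class stood near the non-neuronal classes, with 17.2 and 0 CPM. Astrocyte-like cells had 10.7 and 24.5 CPM, oligodendrocyte-like cells 4.7 and 19.9, vascular or blood-like cells 13.4 and 26.9, and ependymal-like cells 11 and 5.43. Oligodendrocyte precursor-like cells had 141 CPM in library 1 and 9.45 in library 2, but the first value came from 11 UMIs in 2 of 11 cells.

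Chrm2 (chr6:36388084-36528414, plus) showed a like order. Unnamed neurons had 107 and 143 CPM, inhibitory-like neurons 97.8 and 143, and excitatory-like neurons 122 and 113, and these ranges overlapped. Trigeminal-like neurons had 46.7 and 94.7 CPM. Granule-like neurons had 0 UMIs in library 1 (floor 12.3 CPM) and 95.7 CPM in library 2, from 6 UMIs in 2 of 47 cells. Oligodendrocyte precursor-like cells had 38.5 and 37.8 CPM, from 3 and 4 UMIs. The remaining named non-neuronal classes lay between 0 and 23.1 CPM, and the noradrenergic-like class had the lowest mean, with 4.05 and 1.42 CPM. An lncRNA on the opposite strand, 9330158H04Rik, overlaps Chrm2. It had 0 and 1 UMIs in the noradrenergic-like class and 70 and 82 in the other neurons. Chrm3 is overlapped by Gm26861 on the opposite strand, with 12 and 9 UMIs in the other neurons, and by Gm47405 on its own strand, with 13 and 11, and both had 0 in the noradrenergic-like class. How the counting treated strand is not given, so these overlaps leave the split between partners uncertain.

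**Figure D2:**
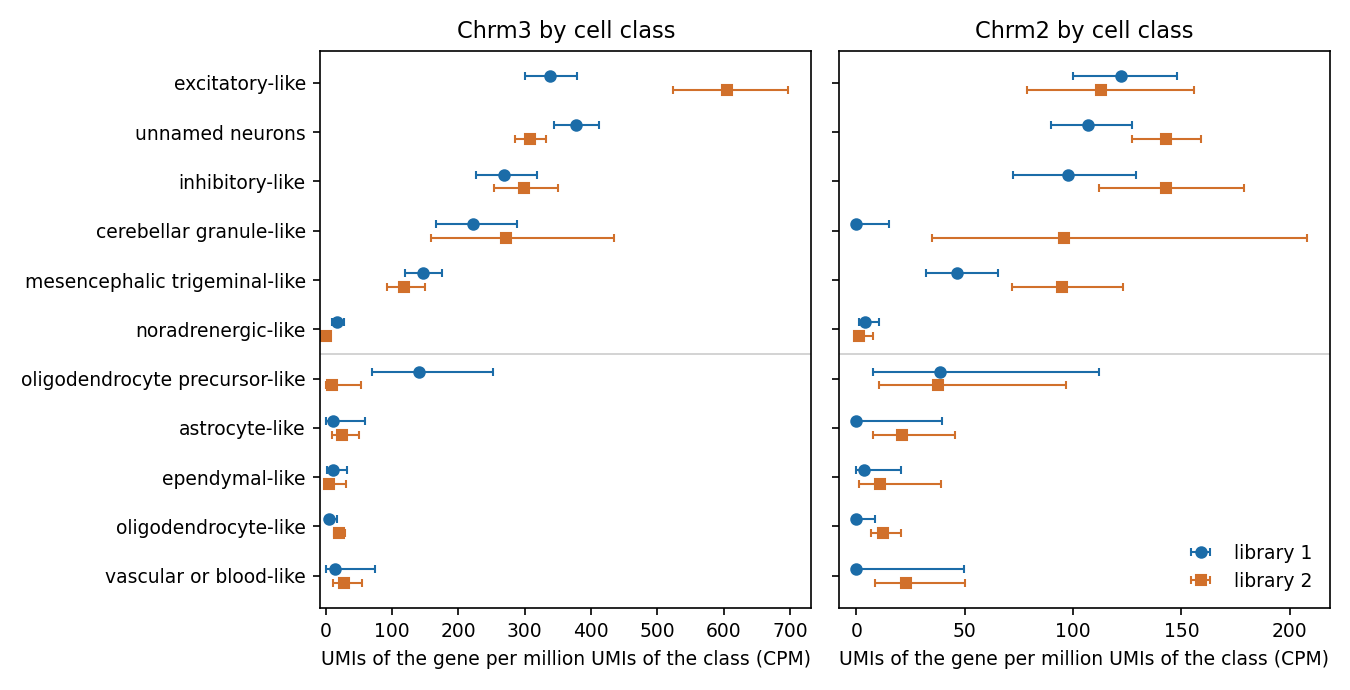
CPM of Chrm3 and Chrm2 (horizontal axes) in 11 cell classes, neurons above the grey line, with 1 point per library and exact 95% Poisson intervals. Both receptors are high in excitatory-like, unnamed and inhibitory-like neurons and near 0 in noradrenergic-like cells.

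How the levels of the receptors compare with each other depends on the length used. Per kilobase of exon, Chrm3 stood at 37.6 and 40.3 CPM and Chrm2 at 11.8 and 18.2 in all neurons. Per kilobase of gene, introns included, Chrm3 stood at 0.485 and 0.519 CPM and Chrm2 at 0.509 and 0.786. The sources used here do not say whether introns were counted, so no order of the receptors is given. The Gq-coupled members made up 76.9% (74.6 to 79.1) of the muscarinic UMIs of neurons in library 1 and 69.8% (67.5 to 72.1) in library 2. This share is of raw UMIs, nearly all of them Chrm3 and Chrm2, so it depends on length in the same way. It gives no order of the Gq-coupled and Gi-coupled receptors, and its intervals cover counting error only. The lowest share of a named neuronal class was in trigeminal-like neurons of library 2 (55.5%, 46.4 to 64.3), but in library 1 that class had 75.7% (67.8 to 82.6).

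The 7 unnamed neuronal clusters all held both receptors where they had cells. Chrm3 lay between 211 and 646 CPM over the 6 clusters of library 1 and between 80.5 and 389 over the 7 of library 2, and Chrm2 between 39.4 and 145 and between 63.0 and 172. The low Chrm3 value of library 2 was in a cluster of 98 cells led by Cd86, which had 0 cells in library 1 and a median of 900.5 UMIs. Both receptors were found in some cells. In library 2, 121 of 1220 neurons had both, 148 Chrm2 alone and 266 Chrm3 alone, and in library 1 it was 58, 27 and 56 of 199. Thinned to 1000 UMIs, both were found in 10 of 199 and 27 of 1037 neurons.

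The first comparison asked which members separate neurons from other cells. Chrm2 and Chrm3 were higher in neurons, with 71.4 and 110.0 CPM of Chrm2 in libraries 1 and 2 against 4.22 and 16.4 in non-neuronal cells. Chrm3 had 235 and 252 CPM against 19.0 and 19.8. Every neuronal value lay above every non-neuronal value. The log2 difference was 3.07 ± 0.32 (SE, n = 2 libraries) for Chrm2 and 3.63 ± 0.25 for Chrm3, with adjusted p-values of 4.9e-06 and 2e-07 in edgeR's quasi-likelihood test (Benjamini-Hochberg). Slc5a7 was also called (1.60 ± 0.57, edgeR adjusted p = 0.0332), from 3.71 and 16.7 against 3.17 and 3.87 CPM. Its groups overlapped, since the lower neuronal value lay under the higher non-neuronal one, and the log2 difference was 0.19 in library 1 and 1.94 in library 2. The call was lost in DESeq2 (adjusted p = 0.5) and without the library block (adjusted p = 0.157). The other 5 members did not pass the filter on low counts. All 3 members tested were called higher, where 26.1% of the 13490 genes tested were called higher and 50.2% in either direction, so a call in this comparison was common.

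Genes around the members divided between the classes. Of 15 acetylcholine handling genes, all tested, 3 rose in neurons, 6 fell and 6 did not pass, with a median log2 difference of -0.61 against 0.08 over all genes. Ache, which breaks acetylcholine down, rose by 3.79 ± 0.34 (75.8 and 59.8 against 4.22 and 4.83 CPM, edgeR adjusted p = 1.31e-06), and Slc10a4 by 4.80 ± 0.41. Prima1, which anchors that enzyme to membranes, fell by 3.35 ± 0.28, and the choline transporter gene Slc44a1 fell by 2.31 ± 0.20. Of the Gi list 10 of 15 tested genes rose and 2 fell (median 2.39), with the potassium channel subunit gene Kcnj9 at 4.22 ± 0.40 and Kcnj6 at 3.48 ± 0.28. Of the Gq list 6 of 18 rose and 3 fell (median 0.02). Dgkb, a diacylglycerol kinase, rose by 1.37 ± 0.20, and Itpr2, a calcium release channel of stores, fell by 3.74 ± 0.25. Of 7 desensitization genes 3 rose, Arrb2, Grk2 and Arrb1, and 1 fell, Grk4. All 6 hindbrain cholinergic neuron genes tested, of 12 listed, rose (median 3.56), Nos1 by 3.49 ± 0.40. Slc10a4, Ecel1 and Isl1 had at most 2.11 CPM in non-neuronal cells and passed the filter through neurons, so their direction was nearly set. Slc10a4 had 297 and 206 CPM in noradrenergic-like cells and Isl1 117 and 115 in trigeminal-like neurons. These rises are therefore no measure of cholinergic neurons.

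The second comparison set noradrenergic-like cells against the other neurons. Of 12 noradrenergic-like cells in library 1, 3 held Chrm3, with 17 UMIs in all and 13 of them in 1 cell, and of 74 in library 2 none did. The levels were 17.2 CPM (10.0 to 27.6) and 0 (floor 4.25 CPM for 3 counts) against 295 (278 to 314) and 301 (283 to 319) in the other neurons. Chrm2 had 4 UMIs in 3 cells and 1 UMI in 1 cell, or 4.05 CPM (1.1 to 10.4) and 1.42 (0.0359 to 7.9), against 90.0 (80.4 to 100) and 131 (120.0 to 144). Both receptors were lower in the noradrenergic-like class in each library, with no overlap. In library 2 Chrm3 was at least 70.7-fold lower, taking 3 counts in the noradrenergic-like class of that library.

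The fit gave a log2 difference of -5.20 ± 0.38 (SE, n = 2 libraries) for Chrm2 and -4.97 ± 0.41 for Chrm3, with edgeR adjusted p-values of 1.78e-06 and 4.85e-06. For Chrm3 DESeq2 gave an adjusted p of 0.057, above the threshold of 0.05. Where noradrenergic cells were instead those with at least 3 of Dbh, Th, Slc6a2 and Slc18a2 (18 and 73 cells), the differences were -3.85 for Chrm2 and -3.61 for Chrm3, both called (edgeR adjusted p = 0.000358 and 0.00194). That gate was added after the data were seen. Depth differed between the classes, with a median of 83596.5 and 7946.5 UMIs per noradrenergic-like cell and 13824 and 2168.5 per other neuron. Thinned to 1000 UMIs, 0 of 12 and 0 of 72 noradrenergic-like cells had Chrm3. The other neurons had it in 48 of 187 (25.7%, 19.6 to 32.6) and 201 of 965 (20.8%, 18.3 to 23.5). For Chrm2 the thinned counts were 0 of 12 and 0 of 72 against 21 of 187 (11.2%) and 113 of 965 (11.7%). Among oligodendrocyte-like cells thinned the same way, Chrm3 was in 0 of 39 and 15 of 577 cells (2.60%) and Chrm2 in 0 of 39 and 8 of 577 (1.39%).

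Chrm1 (chr19:8663789-8683587, plus) went the other way at a much lower level. It had 9 UMIs in 8 of 12 noradrenergic-like cells of library 1 (9.11 CPM, 4.17 to 17.3) and 7 in 6 of 74 of library 2 (9.92 CPM, 3.99 to 20.4). The other neurons had 5 and 3 UMIs, or 1.39 CPM (0.452 to 3.25) and 0.821 (0.169 to 2.4). No cell of the noradrenergic-like class held more than 2 UMIs, so the counts were spread over cells, and the counting intervals of the 2 classes did not overlap in either library. Thinned to 1000 UMIs, 0 of 12 and 1 of 72 noradrenergic-like cells had it, against 0 of 187 and 0 of 965 other neurons, too few to show a difference. Oligodendrocyte-like cells had 0 and 1.66 CPM. The pooled ratio of CPM was 8.56 (3.46 to 23.1). The log2 difference was 2.98 ± 0.66 with an edgeR adjusted p of 0.00575, and DESeq2 did not call it (adjusted p = 0.166). Elsewhere Chrm1 had 4 and 1 UMIs in excitatory-like neurons, or 4.66 CPM (1.27 to 11.9) and 3.13 (0.0794 to 17.5). These intervals overlapped the noradrenergic-like ones. Oligodendrocyte precursor-like cells had 0 and 9.45 CPM. The noradrenergic-like class was thus set apart from the pooled other neurons and not from each class. Outside the noradrenergic-like and excitatory-like classes Chrm1 had at most 2 UMIs in a class of either library. It had 0 in inhibitory-like, trigeminal-like, granule-like and vascular or blood-like cells. Slc5a7 was not called (0.31 ± 0.42, edgeR adjusted p = 0.625), and the pooled ratio of its CPM was 1.15 (0.652 to 1.92), with the few cells of at least 2 cholinergic markers among the other neurons.

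Of the 4 members tested, 3 were called, 1 higher and 2 lower, where 30.5% of the 11623 genes tested were called, 15.4% higher and 15.1% lower. The noradrenergic-like class was thus low in the 2 receptors that other neurons carried, and Chrm1 was its 1 receptor with a level above theirs. Chrm1 had 5 and 3 UMIs in the other neurons and passed the low-count filter through the noradrenergic-like class. Chrm2, with 4 and 1 UMIs in that class, and Chrm3, with 17 and 0, passed it through the other neurons. The direction of these calls was therefore nearly set by the filter, and the count of calls carries little weight.

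**Figure D3:**
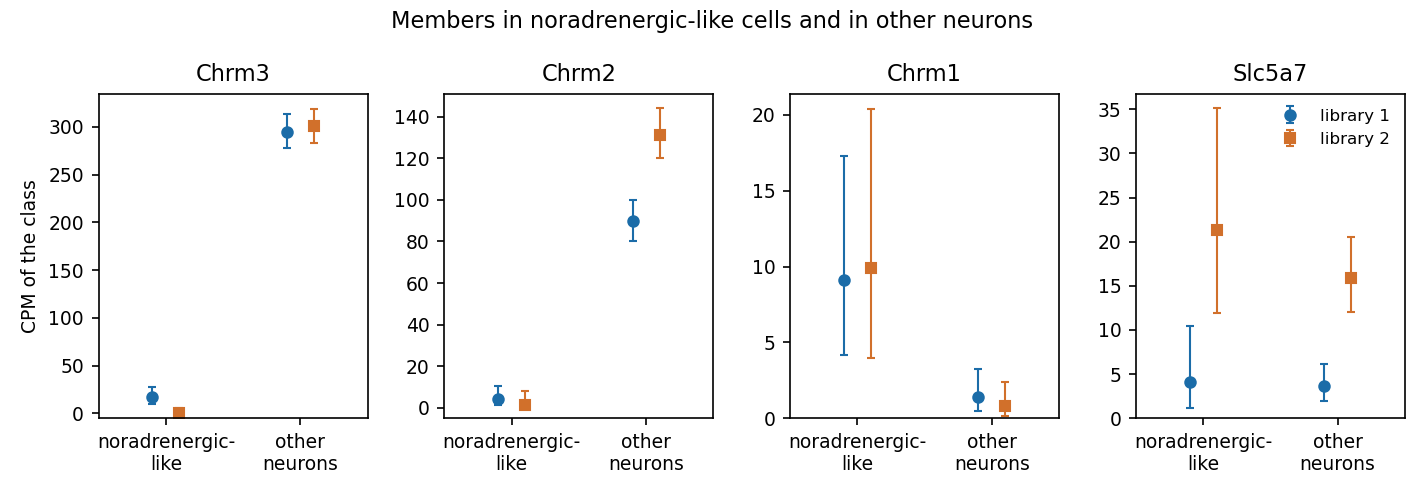
CPM (vertical axes, each with its own scale) of Chrm3, Chrm2, Chrm1 and Slc5a7 in noradrenergic-like cells and other neurons, 1 point per library with exact 95% Poisson intervals. Chrm3 and Chrm2 lie far below the other neurons in both libraries, Chrm1 lies above them, and Slc5a7 overlaps.

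Downstream genes of both receptor classes moved in either direction. Of the Gq list, 17 genes were tested, 4 rose in noradrenergic-like cells, 8 fell and 5 did not pass (median log2 -0.39, against -0.02 over all genes). Plcb1, a phospholipase C, had 53.6 and 39.7 CPM against 376 and 371 and fell by 3.03 ± 0.18 (edgeR adjusted p = 5.4e-07). The calcium release channel gene Itpr1 fell by 2.88 ± 0.35, with 12.1 and 7.09 CPM against 51.5 and 102. Prkca, a protein kinase C, rose by 1.91 ± 0.14 with 636 and 801 CPM against 172 and 197, and Dgkb rose by 1.45 ± 0.16. Gna11 rose (0.93 ± 0.18) and Trpc6 fell (-3.47 ± 0.98), neither of them called by DESeq2. Trpc6, at 0 and 1.42 CPM against 5.57 and 8.75, passed the low-count filter through the other neurons, so its fall was nearly set.

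Of the Gi list 15 genes were tested, 7 rose, 4 fell and 4 did not pass (median 0.08). Rgs4 and Rgs9, which shorten G protein signals, rose by 2.31 ± 0.22 and 1.60 ± 0.15, with Rgs4 at 180 and 218 CPM against 47.3 and 30.6. Adcy8, an adenylyl cyclase, fell by 3.53 ± 0.24, with 12.1 and 14.2 CPM against 134 and 163. Gnai2 (1.10 ± 0.18) and Gnai3 (0.72 ± 0.21) rose, and Rgs8, Adcy1 and Kcnj3 fell by 2.23, 1.07 and 0.65. DESeq2 called none of these 5. Grk3, a receptor kinase, was the 1 desensitization gene of 7 that rose (1.25 ± 0.19, 125 and 112 CPM against 44.6 and 52.5).

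Of 12 acetylcholine handling genes tested, 4 rose, 3 fell and 5 did not pass (median 0.03). Slc10a4 rose by 5.33 ± 0.22, with 297 and 206 CPM against 5.85 and 6.02 (edgeR adjusted p = 4.65e-08), and Colq, a collagen tail of acetylcholinesterase, rose by 2.82 ± 0.40. Ache rose by 0.99 ± 0.18, with 119 and 113 CPM against 63.8 and 49.5, though DESeq2 gave an adjusted p of 0.0659. Pcyt1b rose by 0.84 ± 0.20. The choline transporter genes Slc44a5 and Slc44a1 fell by 3.74 ± 0.42 and 2.99 ± 0.27, and Slc44a2 by 0.89 ± 0.29. DESeq2 called neither Pcyt1b nor Slc44a2. Of the 6 hindbrain cholinergic neuron genes tested, Slc10a4 and Ret rose and Isl1 and Prph fell, Ret and Isl1 not called by DESeq2. Isl1 and Prph were carried by trigeminal-like neurons, at 117 and 115 CPM for Isl1 and 475 and 359 for Prph. In noradrenergic-like cells Isl1 had 0 CPM in both libraries and Prph had 0 and 1.42. Both passed the low-count filter through the other neurons, so their fall was nearly set.

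Excitatory-like and inhibitory-like neurons were then compared. Chrm3 had 338 and 605 CPM in the first and 269 and 299 in the second, higher in each library, with a log2 difference of 0.61 ± 0.17 (SE, n = 2 libraries; edgeR adjusted p = 0.015). The difference was 0.32 in library 1 and 1.01 in library 2. The call was lost in DESeq2 (adjusted p = 1.0), without the library block (0.271) and with at least 500 genes per cell (0.147). With neurons sorted by their own transcripts of Slc17a6 against Gad1, Gad2, Slc32a1 and Slc6a5, a gate added later, the sign turned (-0.09, adjusted p = 0.768). Chrm2 had 122 and 113 CPM against 97.8 and 143 and was not called (-0.03 ± 0.23, edgeR adjusted p = 0.978). Of the 2 members tested 1 was called, higher, where 6.2% of the 7079 genes tested were called, 3.33% higher and 2.87% lower. Of the Gi list Gnai2 and Rgs9 rose among 15 tested, of the Gq list Plcb4 fell among 13, and of 8 acetylcholine handling genes Slc44a5 fell, none of which DESeq2 called. None of 6 desensitization genes passed.

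Trigeminal-like neurons were lower in Chrm3 than the other neurons, noradrenergic-like cells included. Chrm3 had 146 and 118 CPM against 252 and 273, without overlap, and the log2 difference was -1.0 ± 0.24 (SE, n = 2 libraries; edgeR adjusted p = 0.000234, DESeq2 adjusted p = 0.012). Chrm2 had 46.7 and 94.7 CPM against 76.1 and 113, lower in each library, but was not called (-0.47 ± 0.26, edgeR adjusted p = 0.16). Of the 2 members tested 1 was called, lower, where 34.9% of the 11650 genes tested were called and 18.3% lower. This comparison shares most of its neurons with the noradrenergic one. Of the Gi list 9 of 15 tested genes fell and 2 rose (median -1.07 against -0.05 over all genes), with Kcnj6 at 5.5 and 4.99 CPM against 135 and 144 (-4.72 ± 0.41). Of the Gq list 8 of 17 fell and none rose (median -0.52), among them Kcnq5 (-2.42 ± 0.27) and Plcb4 (-1.45 ± 0.24). Arrb1 and Grk3 fell among 7 desensitization genes. Of 12 acetylcholine handling genes 3 rose and 4 fell. DESeq2 called Pcyt1a and Slc44a5 of these and did not call Gpcpd1, Pcyt1b, Slc10a4, Colq or Prima1. Of 7 hindbrain cholinergic neuron genes 3 rose, Isl1, Prph and Isl2, and 3 fell, of which DESeq2 called Nos1 and not Slc10a4 or Ecel1. Isl1 and Isl2 had at most 1.06 CPM in the other neurons. Slc10a4, Ecel1, Colq and Prima1 had at most 1.66 CPM in trigeminal-like neurons. These genes passed the low-count filter through the class where they were high, so their direction was nearly set. Slc10a4 had 0 UMIs in trigeminal-like neurons of both libraries, against 81.5 and 44.4 CPM. That second level includes noradrenergic-like cells at 297 and 206 CPM, and neurons outside that class had 5.85 and 6.02.

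In oligodendrocyte precursor-like cells, Chrm2 had 3 and 4 UMIs (38.5 and 37.8 CPM) against 0 and 15 (0 and 12.5 CPM) in oligodendrocyte-like cells. The only member tested, it was not called (2.12 ± 0.82, edgeR adjusted p = 0.0704), so 0 of 1 member was called where 33.4% of 4622 genes were. At an unadjusted p under 0.05 the same test passed 1964 genes. Chrm3 had 11 and 1 UMIs against 2 and 24 and did not pass the filter. Of the Gq list 9 of 13 tested genes rose in the precursors and none fell (median 2.62 against -0.13 over all genes), with Kcnq5 at 372 and 312 CPM against 4.7 and 21.6 (4.25 ± 0.51). Of the Gi list 4 of 10 rose and 2 fell, and of 3 desensitization genes 1 rose, Arrb1. Of 7 acetylcholine handling genes tested, Slc44a5 and Gpcpd1 rose and Prima1, Pcyt1b, Slc44a1 and Chka fell. DESeq2 called Slc44a5 and Slc44a1 of these and did not call the other 4 or Arrb1. Slc44a5 had 0 and 2.49 CPM in oligodendrocyte-like cells, and Prima1 had 0 CPM in the precursors of both libraries. Each passed the low-count filter through the class where it was high, so its direction was nearly set.

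**Figure D4:**
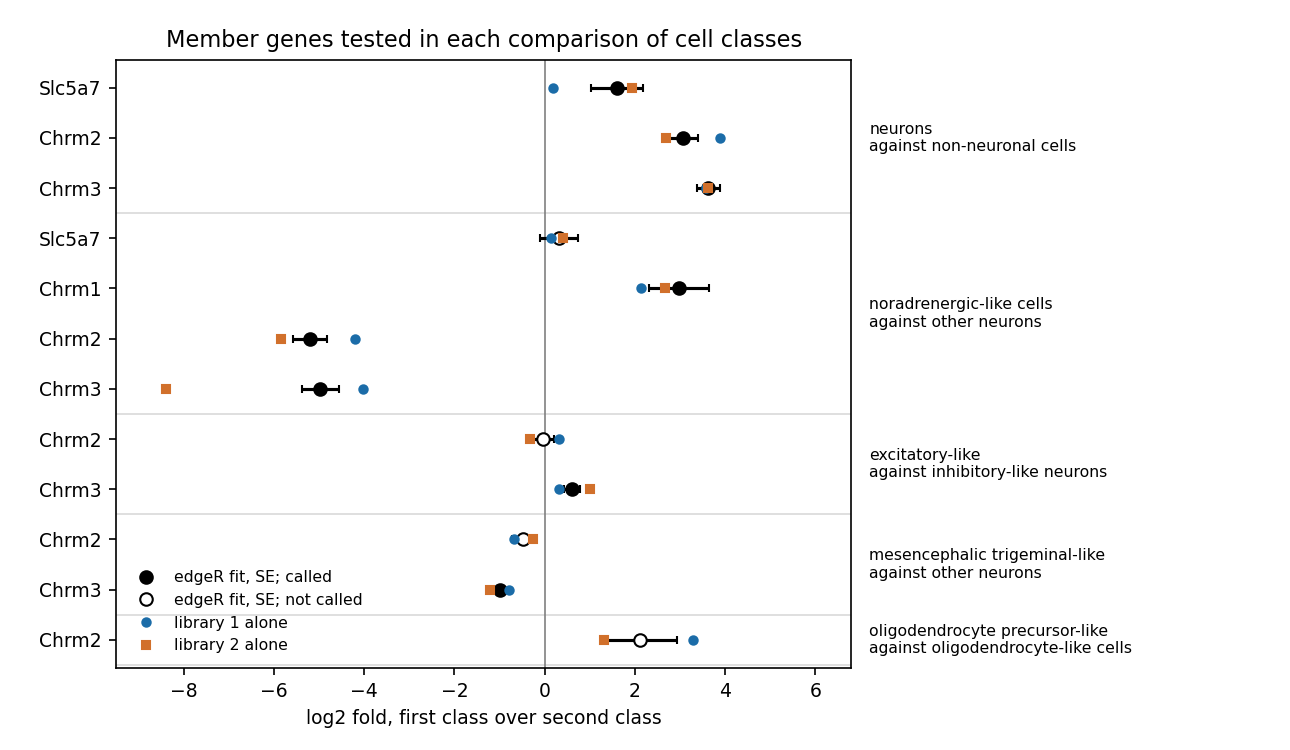
Log2 difference (horizontal axis) of each member tested in the 5 comparisons, with the edgeR estimate and its SE in black (filled where the adjusted p was under 0.05) and each library alone in colour. Chrm2 and Chrm3 are positive in neurons against non-neuronal cells and negative in noradrenergic-like cells, where Chrm1 is positive and the library 2 value of Chrm3 is set against 0 UMIs, so that its size depends on the prior count.

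The genes whose profile over the 10 named classes was most like that of each receptor were found by Pearson's r of log2(CPM + 5), ranked by the lower of the 2 libraries among 7239 genes. For Chrm2 they were Nkain3 (r = 0.842 in library 1 and 0.927 in library 2), Lingo1 (0.824 and 0.965) and 6330411D24Rik (0.818 and 0.853). For Chrm3 they were Gabrb2, a GABA-A receptor subunit gene (0.912 and 0.871), Cdh12, a cadherin gene (0.9 and 0.87), and Lingo1 (0.887 and 0.858). Chrm2 and Chrm3 themselves had r = 0.778 and 0.924. These values describe 10 classes drawn from the same 2 libraries. Lingo1 had 11.1 and 0 CPM in noradrenergic-like cells, against 134 and 137 in inhibitory-like neurons, and Gabrb2 had 6.07 and 1.42 in noradrenergic-like cells against 673 and 415 in granule-like neurons.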

How the data were processed

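Transcripts of cells or nuclei from the LC were counted in 2 droplet libraries. The authors deposited unnormalized counts, whole UMIs of each gene in each barcode. Per the file headers the matrices came from Cell Ranger 6.1.2, while the submitters' processing notes name Cell Ranger 7.0, Seurat, mm10 and GRCm38. Intron counting is not given in the sources used here. The shallowest barcodes, at 4208 UMIs (library 1) and 500 (library 2), show that barcodes had been selected before deposit.

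Kept barcodes had 300 genes or more and a mitochondrial share of 20% or less, and the highest Scrublet scores were removed at 0.8% per 1000 barcodes. Cells scaled to 10000 counts were clustered on 149 marker genes in 24 lists (20 components, 15 neighbours, Leiden resolution 1.0, scanpy 1.11.5). A cluster was neuronal at 5000 CPM or more of pan-neuronal markers. It took a class name, X-like, with at least 3 markers of a list at 10 CPM or more and exceeding the median cluster by a log2 of at least 2. The UMIs of a class in a library were added up, and each comparison of 4 such sums was fitted in edgeR 4.0.16 (quasi-likelihood) (R 4.3.3), two-sided, with TMM, filterByExpr and a block for the library, because each library holds both classes. Only 1 residual degree of freedom remains, and the estimate of spread therefore borrows from all genes. With the block, p-values measure how far the class difference varied between these libraries, which may be technical. Calls are at an adjusted p under 0.05. SE was obtained as the log2 fold divided by the root of the F statistic. Folds of a single library use a prior count of 2. DESeq2 1.42.0 and the other alternatives are described in the closing section.

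Named genes are all 8 members, up to 4 called genes of each pathway list with the largest fold in each direction, and the 3 genes of most similar profile for members with at least 50 UMIs in each library. Some genes that this rule names are not reported here. Members and lists were chosen with earlier results of these data known. Positions come from GENCODE M21 (GRCm38), which matched 32235 of 32285 features, and promoter windows from RefSeq, which matched 7 of the 8 members.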

Additional observations from a re-analysis of the deposited data

How the results depend on the processing

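Class names, depth and the spread estimate limit these results. Library 1 gives 12 noradrenergic-like cells, library 2 gives 1517 UMIs at the median barcode, and scarce members cannot be ranked. DESeq2 called fewer genes in each comparison: 3806 in neurons against non-neuronal cells, 1161 in noradrenergic-like cells against other neurons, 33 in excitatory-like against inhibitory-like neurons, 1597 in trigeminal-like against other neurons and 707 in oligodendrocyte precursor-like against oligodendrocyte-like cells, where edgeR called 6772, 3544, 439, 4062 and 1546. For excitatory-like against inhibitory-like neurons, the fit without the replicate block called 156 genes and the gates by transcripts 1385, and with those gates the Chrm3 difference reversed to -0.09. Without the block Slc5a7 in neurons (1.46, adjusted p = 0.157) and Chrm3 in excitatory-like neurons (0.64, adjusted p = 0.271) lost their calls, and no other call of a member changed. Cells with any cholinergic marker numbered 59 over both libraries, 16 after thinning to 1000 UMIs and 12 to 47 with 1 library left out. Cells with at least 2 markers numbered 5, 0 after thinning and 1 to 4 with 1 library left out. Chrm2 in oligodendrocyte precursor-like cells was called with DESeq2 size factors in edgeR (2.13, adjusted p = 0.0353). Outside the settings that leave out a library, 95 values of members kept direction and call, 7 lost the call, 1 gained it and 3 changed sign. Besides Chrm3, these were uncalled values near 0: Slc5a7 in noradrenergic-like cells without granule and trigeminal neurons (-0.06) and Chrm2 in excitatory-like neurons with at least 500 genes per cell (0.16). The cause was not tested. No excitatory-like class formed with 2 times the doublets removed or with clustering on variable genes, so those settings gave no value. A single library leaves no residual spread and gives values without a test. With 1 library left out, 11 member values stayed within 1 SE of the main fit and 13 moved further. Among called members 0 reversed. These folds of a single library also use a prior count of 2, unlike the main fit. The Cd86-led cluster, the gates, granule and trigeminal neurons and all deposited barcodes were alternatives chosen after seeing the data.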
